A study of Mus musculus with 15 samples.

Results

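The comparison of mouse fetal liver cells lacking Klf3 and carrying a Klf8 gene trap with cells lacking Klf3 alone rests on 7 of the study's 15 arrays, 4 doubly mutant and 3 Klf3-null, chosen by their titles. It covers the 23410 transcript clusters with a gene symbol among the 35556 on the array. A transcript cluster is the array's set of probes for a transcript, and each cluster has 1 log2 signal per array. Both groups are Klf3-/-, and they differ by the Klf8 gene-trap allele, which is labelled Klf8gt/gt in all doubly mutant samples. Klf8 lies on the X chromosome, so male embryos can carry the trap on a single copy only, whatever the label. The remaining arrays are 4 labelled Klf8gt/gt with intact Klf3 and 4 of wild-type embryos. They entered the same model, and serve here as the background on which Klf3 is present. All samples are TER119+ cells of FVB/NJ fetal liver at E13.5, collected on magnetic beads against TER119, a surface antigen of maturing red cell precursors. Litters were matched only where this was possible, and which arrays share a litter is not given. It is also not stated that each array is a separate embryo, so the p-values reflect only how far these arrays vary, and that variation may be technical.

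KLF3 and KLF8 are zinc finger proteins of the Kruppel-like factor family that bind CACCC-type motifs in promoters and enhancers. Both repress transcription, in part by recruiting the corepressor CtBP. In red cell precursors KLF1 activates Klf3 and KLF3 represses Klf8, so that Klf8 is raised when KLF3 is lost. The comparison asks what the Klf8 trap changes in cells where Klf3 is absent and the Klf8 gene has been released from its repression.

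Array medians of the deposited values lay between 6.28 and 6.41 on the log2 scale, and no pair of arrays held identical values. The submitters' notes list RMA, a processing that brings arrays to a common scale, so near-equal medians are no check of the raw signal. Correlations over tested clusters were 0.995 to 0.997 among Klf3-null arrays, 0.982 to 0.990 among doubly mutant arrays and 0.985 to 0.993 between them. The doubly mutant arrays were thus the more varied group, with a median SD of 0.17 against 0.10 for Klf3-null arrays. By Xist and Y-linked genes, doubly mutant replicates 1 and 2 and Klf3-null replicate 3 were male and the others of these groups female. All 4 wild-type arrays were male, and 2 Klf8-trap arrays were male and 2 female. Comparisons that use the wild-type arrays thus also differ in the mix of sexes, and no value with sex in the model is given for them. Erythroid markers of the labelled cell type were bright, with a mean signal over 9 genes of 12.38 to 12.85 in doubly mutant and 12.64 to 12.84 in Klf3-null arrays. Hepatocyte genes were bright as well, with a list mean over 16 genes of 10.51 to 11.62 and 11.43 to 11.71. A fold is given only where both group means lie at or above the lowest array median. The values carry no detection call.

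Klf8 fell, and no tested cluster had a lower difference. Its signal was 8.04, 7.35, 6.85 and 6.91 in doubly mutant replicates 1 to 4 and 8.83, 8.89 and 8.42 in Klf3-null replicates 1 to 3. Every doubly mutant array lay below every Klf3-null array, and replicate 1 came closest to them. The means were 7.29 ± 0.55 (SD, n = 4) and 8.71 ± 0.26 (SD, n = 3), a fall of 2.69-fold or -1.42 ± 0.22 (SE) on the log2 scale, with a 95% interval from -1.89 to -0.96 (limma with Benjamini-Hochberg adjustment, adjusted p = 0.0265). An exact two-sided permutation test of the 7 arrays gave p = 0.0571, the smallest that the 35 ways of splitting them allow. The fall was partial, since the doubly mutant arrays remained above all Klf8-trap arrays (5.27 to 5.48) and all wild-type arrays (5.13 to 5.55). Where Klf3 was intact the Klf8 signal lay below the array medians, and the difference of Klf8-trap from wild-type arrays was 0.02 ± 0.20. The test of the difference between these trap effects did not pass over all clusters (-1.45 ± 0.30, adjusted p = 0.113). The sources used here give neither the trap's place of insertion nor the position of the cluster's probes, so the remaining signal cannot be read as intact Klf8 transcript.

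The Klf8 call depended on single arrays. Its adjusted p was 0.0872 without doubly mutant replicate 3 and 0.19, 0.25 and 0.0655 without Klf3-null replicates 1, 2 and 3, with differences from -1.28 to -1.68 over all arrays left out in turn. Within the doubly mutant group the male arrays read 8.04 and 7.35 and the female arrays 6.85 and 6.91, and with sex in the model the difference was -1.46 (adjusted p = 0.032).

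The Klf3 cluster did not separate the groups. It read 11.73, 11.36, 11.34 and 11.06 in doubly mutant and 11.40, 11.39 and 11.16 in Klf3-null arrays, which overlap, with a difference of 0.05 ± 0.13 (adjusted p = 0.911). Both groups lay above wild-type arrays (10.12 to 10.51). A cluster may rest on probes outside the deleted segment, and for that reason it gives no check of the Klf3 genotype.

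Since both factors bind CACCC motifs, the promoter windows of Klf8 and of Itgb7 and Parm1, which had the largest rises among the genes past the threshold, are shown with every CACCC and its reverse complement GGGTG in capitals. Each window runs from 250 bases before to 50 bases after the transcript's start, 5′ to 3′ on the gene's strand, from RefSeq on GRCm38.p6. Klf8 has 2 listed starts, at chrX:153237498-153237797 and chrX:153359363-153359662 on the plus strand. Itgb7 lies at chr15:102231886-102232185 on the minus strand and Parm1 at chr5:91517450-91517749 on the plus strand.
Klf8, first window: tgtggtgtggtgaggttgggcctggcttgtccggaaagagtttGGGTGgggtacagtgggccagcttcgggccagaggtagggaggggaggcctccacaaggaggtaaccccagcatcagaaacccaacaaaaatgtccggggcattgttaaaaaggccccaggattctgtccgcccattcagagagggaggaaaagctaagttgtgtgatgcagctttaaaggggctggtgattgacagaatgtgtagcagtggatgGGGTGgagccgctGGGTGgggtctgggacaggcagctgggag
Klf8, second window: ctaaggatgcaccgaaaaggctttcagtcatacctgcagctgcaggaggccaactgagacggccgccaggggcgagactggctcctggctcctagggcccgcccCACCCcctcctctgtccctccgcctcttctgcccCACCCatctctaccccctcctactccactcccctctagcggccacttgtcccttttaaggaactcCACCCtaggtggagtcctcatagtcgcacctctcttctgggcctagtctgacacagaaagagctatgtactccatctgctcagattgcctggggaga
Itgb7: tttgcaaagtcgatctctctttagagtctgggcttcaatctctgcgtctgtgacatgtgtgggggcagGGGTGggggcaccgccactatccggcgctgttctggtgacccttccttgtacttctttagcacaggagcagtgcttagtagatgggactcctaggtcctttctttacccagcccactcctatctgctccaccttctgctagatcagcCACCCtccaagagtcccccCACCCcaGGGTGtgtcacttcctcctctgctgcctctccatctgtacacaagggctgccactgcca
Parm1: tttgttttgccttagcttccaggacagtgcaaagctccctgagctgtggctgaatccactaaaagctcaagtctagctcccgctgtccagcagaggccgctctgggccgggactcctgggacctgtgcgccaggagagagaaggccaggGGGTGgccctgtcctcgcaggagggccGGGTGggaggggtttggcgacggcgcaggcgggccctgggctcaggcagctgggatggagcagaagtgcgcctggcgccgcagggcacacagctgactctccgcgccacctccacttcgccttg
Each Klf8 window held 3 matches, in the first all on the reverse strand and in the second all on the forward strand, Itgb7 held 4 and Parm1 2. Of the 11 genes past the threshold, 8 had a window, and 7 of their 9 windows held at least 1 match. Tcfl5 and Sult5a1 held 2 each, Rps3a1 held 1, and Gbp2b and Lipo3 held 0. Among all 32851 windows of 27025 genes, 57.5% held at least 1 match on either strand, 25.7% at least 2, 9.35% at least 3 and 3.1% at least 4. A match is a description of the letters and no binding site.

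In all, 11 of 23410 clusters passed an adjusted p of 0.05 (0.0470%), 10 of them higher (0.0427%) and 1, Klf8, lower (0.00427%). The genes that rose were Itgb7, Parm1, Gbp2b, Tnks1bp1, Tcfl5, Rps3a1, Lipo3, Ncam1, Sult5a1 and Kif21b. Before adjustment 3011 clusters had p under 0.05 (12.9%), 1237 higher (5.28%) and 1774 lower (7.58%). The differences were small in general, with 96.7% of clusters within 0.5 of 0, 36 clusters at 1 or more and 20 at -1 or less. The median over all tested clusters was -0.02. The count of 11 was 81 without doubly mutant replicate 1, 18 without replicate 2, 6 without replicate 3 and 484 without replicate 4. Without Klf3-null replicates 1, 2 and 3 it was 3, 2 and 1, and without Klf8-trap replicate 1 it was 19. It was 0 when only the 7 arrays were fitted, where 2141 clusters had an unadjusted p under 0.05. With the mean signal of macrophage markers as a covariate it was 4, of which 2, Itgb7 and Klf8, are among the 11.

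**Figure D1:**
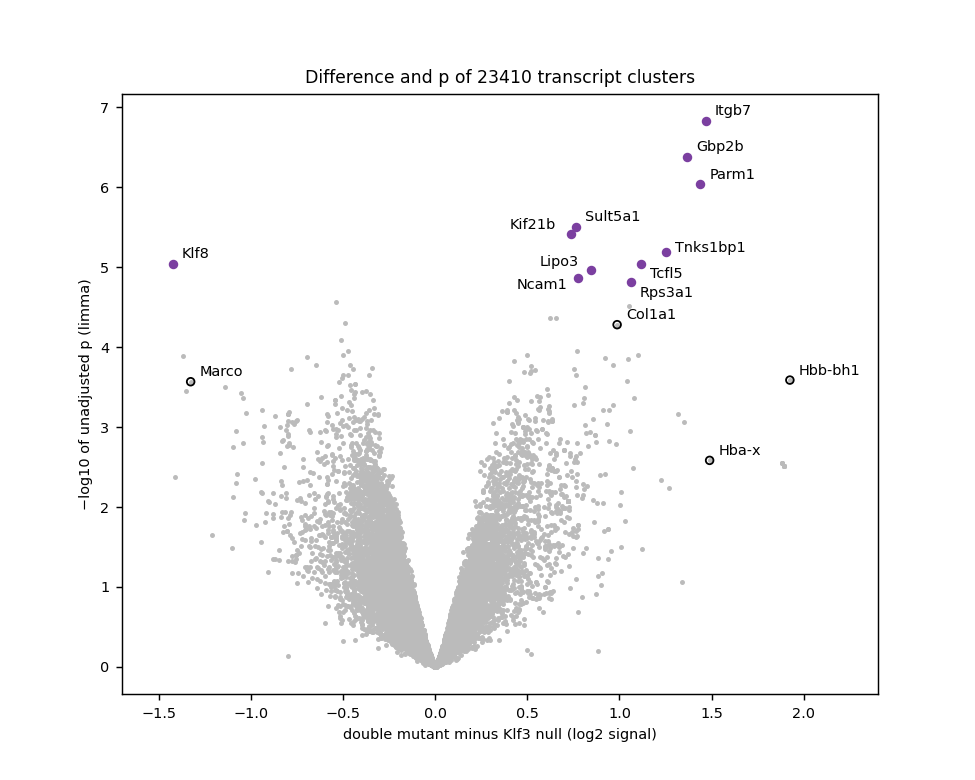
Difference of each of the 23410 tested clusters between doubly mutant and Klf3-null arrays (horizontal axis, log2 signal) against the −log10 of its unadjusted limma p (vertical axis), with the 11 clusters past the threshold in purple and 4 further genes ringed. Klf8 is alone among the called clusters on the lower side, at -1.42, and Hbb-bh1 lies farthest to the right at 1.92 without passing.

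Itgb7, which encodes the beta 7 integrin chain of lymphocyte adhesion receptors, had the smallest p. It read 8.41, 7.70, 8.14 and 8.10 in doubly mutant arrays and 6.48, 6.77 and 6.60 in Klf3-null arrays. The groups did not overlap, and all 4 doubly mutant arrays lay above all 11 others of the study. The rise was 2.77-fold (1.47 ± 0.16, adjusted p = 0.00346), and it kept its call whichever array was left out, with differences from 1.36 to 1.60. On the Klf3-intact background the trap gave -0.21 ± 0.15. The difference between these effects was 1.68 ± 0.22 (adjusted p = 0.0311), and Itgb7 was the only cluster of 23410 (0.00427%) at which that interaction passed. The wild-type arrays in it were all male, and it was not examined with sex in the model. Of 27 integrin genes measured, no other member passed between doubly mutant and Klf3-null arrays, and the median of the family was 0.04 (-0.01 without doubly mutant replicate 4, where Itgal also passed as lower).

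Parm1, which encodes a mucin-like membrane protein, showed a rise of similar size. Its signals were 8.84, 8.55, 8.56 and 8.25 against 7.27, 6.94 and 7.12, so the lowest doubly mutant array was above the highest array of any other group (7.27). Parm1 rose 2.71-fold (1.44 ± 0.18, adjusted p = 0.00712). Its adjusted p was 0.111 without Klf3-null replicate 2 and 0.0655 without replicate 3.

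Tnks1bp1, a binding partner of the poly-ADP-ribose polymerases called tankyrases, read 10.39, 9.72, 10.17 and 9.63 in doubly mutant arrays and 8.78, 8.68 and 8.70 in Klf3-null arrays. It rose 2.38-fold (1.25 ± 0.19, adjusted p = 0.0255). The Klf3-null arrays in turn lay above all wild-type arrays (7.59 to 8.28), so the 3 groups formed steps. Differences from wild type were 0.91 (adjusted p = 0.0374) for Klf3-null and 2.16 (adjusted p = 3.98e-06) for doubly mutant arrays. These comparisons share the wild-type arrays.

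The sulfotransferase gene Sult5a1 formed steps of the same kind at lower signal. It read 7.11, 6.77, 7.28 and 6.95 against 6.25, 6.31 and 6.22, while wild-type arrays lay at 5.58 to 5.86. The difference was 0.76 ± 0.11 (adjusted p = 0.0182). From wild type, Klf3-null arrays differed by 0.58 (adjusted p = 0.0165) and doubly mutant arrays by 1.35 (adjusted p = 2.32e-06).

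Tcfl5, a basic helix-loop-helix transcription factor, read 7.38, 6.75, 7.18 and 6.40 in doubly mutant arrays and 5.77, 5.80 and 5.88 in Klf3-null arrays. All 11 other arrays lay below the array medians, at 5.26 to 5.88, and all 4 doubly mutant arrays above them. The difference was 1.12 ± 0.17 (adjusted p = 0.0265).

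Kif21b, a kinesin motor protein, rose 1.67-fold (0.74 ± 0.11, adjusted p = 0.0182), from 7.44, 7.32 and 7.24 to 8.20, 8.07, 7.87 and 8.14. Ncam1, the neural cell adhesion molecule, rose 1.71-fold (0.78 ± 0.12, adjusted p = 0.0321), from 7.03, 6.98 and 7.10 to 7.74, 7.63, 8.20 and 7.68. In both genes the doubly mutant arrays lay above all 11 others. The Klf3-null arrays of Ncam1 overlapped those of the Klf8-trap group (6.76 to 7.10).

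Gbp2b and Lipo3 had another pattern, in which the Klf3-null arrays were the ones that stood apart. Gbp2b, an interferon-inducible guanylate-binding protein, read 5.81, 6.16 and 5.60 in Klf3-null arrays and 7.48, 7.10, 7.47 and 6.84 in doubly mutant arrays, a difference of 1.37 ± 0.16 (adjusted p = 0.00485). Klf8-trap arrays (6.64 to 7.11) and wild-type arrays (6.83 to 7.08) overlapped the doubly mutant ones, and the doubly mutant difference from wild type was 0.29 (adjusted p = 0.331). Lipo3, of a family of acid lipases, read 4.64, 4.58 and 4.85 in Klf3-null arrays, whose mean lies under the lower quartile of all 3. Doubly mutant arrays read 5.47, 5.64, 5.63 and 5.40 (0.84 ± 0.13, adjusted p = 0.028), within the range of wild-type and Klf8-trap arrays together (5.48 to 6.03) or just below it. Both genes belong to families of similar sequence, and signal from related copies was not tested.

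Rps3a1, a protein of the small ribosomal subunit, rose 2.09-fold (1.06 ± 0.17, adjusted p = 0.0328), from 11.46, 11.61 and 11.47 to 12.54, 12.54, 12.39 and 12.84. Wild-type replicate 1, at 11.60, lay among the Klf3-null arrays, while the other wild-type and all Klf8-trap arrays lay at 12.36 to 12.53. Ribosomal protein genes have many near-identical copies in the genome, so the source of this signal is uncertain. Of 60 cytosolic ribosomal protein genes it was the only one past the threshold, 30 had differences above 0 and 30 below, and the next highest was Rps27l at 0.34.

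**Figure D2:**
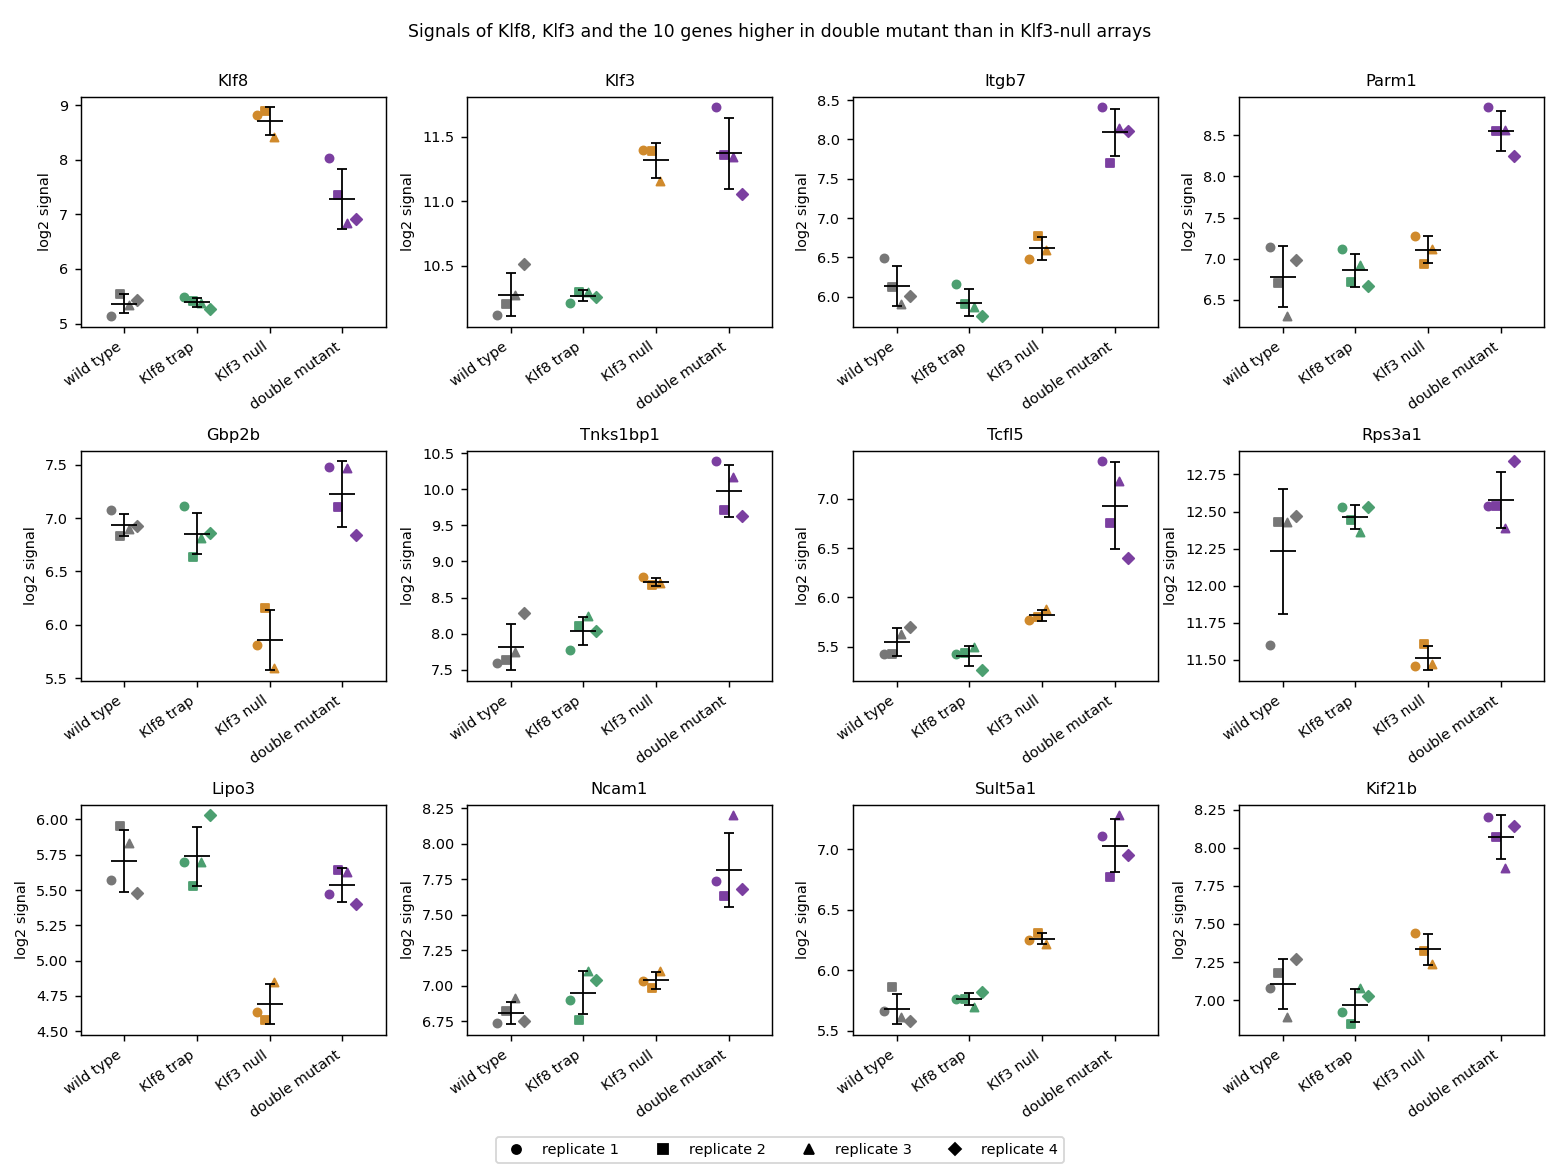
Log2 signal per array of Klf8, Klf3 and the 10 genes that rose, by genotype, with 1 point per array (its shape gives the replicate number), a long bar for the group mean and error bars of 1 SD, each panel on its own scale. In 7 of the 10 panels of genes that rose all doubly mutant arrays lie above the other 11, and in Gbp2b and Lipo3 the Klf3-null arrays lie below the other 12.

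Of the 10 genes that rose, 7 thus had all doubly mutant arrays above the other 11, and 2 had all Klf3-null arrays below the other 12. The calls differed in how much they leaned on single arrays. Gbp2b missed the threshold without Klf3-null replicate 3 (adjusted p = 0.0655). Sult5a1 and Kif21b missed it without any of the 3 Klf3-null replicates, and Tnks1bp1 and Tcfl5 without any of these or doubly mutant replicate 3. Ncam1 lost its call on leaving out any of 7 of the 15 arrays, Lipo3 any of 6 and Rps3a1 any of 9. Apart from Itgb7, the interaction with the Klf3 background did not pass for any of the 10 (adjusted p = 0.0845 to 0.176). On the Klf3-intact background the trap effect for these genes ran from -0.21 to 0.23, and 0 of 23410 clusters passed there in limma (0%), with 3135 at an unadjusted p under 0.05 (13.4%).

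**Figure D3:**
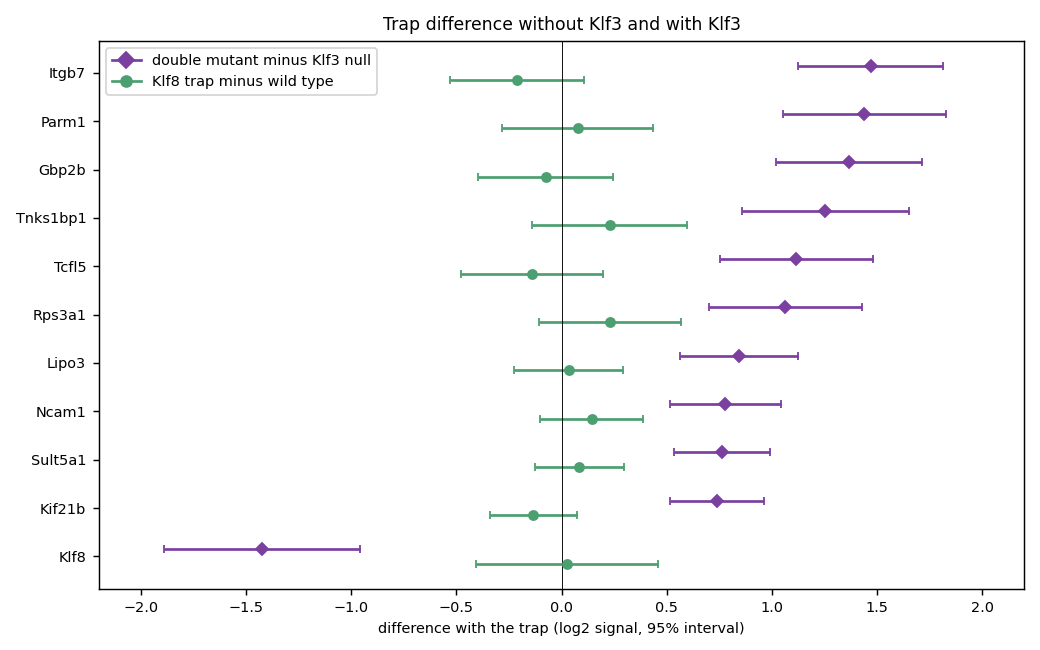
Difference between arrays with and without the Klf8 trap (horizontal axis, log2 signal, with 95% intervals) for the 11 genes past the threshold, without Klf3 (purple diamonds, 4 against 3 arrays) and with Klf3 (green circles, 4 against 4 arrays). All 11 green intervals cross 0, and the test of the difference between backgrounds passed for Itgb7 (1.68, adjusted p = 0.0311) and not for the other 10.

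After Klf8, the lower genes with the smallest p did not pass. Iigp1, an interferon-inducible GTPase, came closest with -0.54 ± 0.09 (adjusted p = 0.0524), from 5.49, 5.46 and 5.34 to 4.88, 4.92, 4.69 and 5.09, all of them dim signals. Rnf7, a RING subunit of ubiquitin ligases, read 9.27, 9.40, 9.23 and 9.09 in doubly mutant and 9.61, 9.81 and 9.80 in Klf3-null arrays (-0.49 ± 0.09, adjusted p = 0.0721). Its doubly mutant arrays lay below all 11 others (9.41 to 9.81). Tmem251 (-0.51, adjusted p = 0.107), Mfsd4b1 (-0.47) and Commd2 (-0.65, both adjusted p = 0.117) had the same order of arrays. Fabp2, an intestinal fatty acid-binding protein, had the largest difference of the group (-1.37, adjusted p = 0.117), and its Klf8-trap arrays spread from 7.25 to 8.72. Olfr1186 (-0.50), the glutathione transferase Gsta4 (-0.70) and Rpf2 (-0.46), a factor of large ribosomal subunit assembly, had adjusted p = 0.117 as well. Without doubly mutant replicate 4 each of these 9 genes passed, among 280 of 23410 clusters that passed as lower at that setting. The 9 were named for their small p, so their passing there is no independent result. Iigp1, Rnf7, Tmem251, Olfr1186 and Commd2 also passed without replicate 1, Rnf7 without replicate 2, and Iigp1, Rnf7, Fabp2 and Rpf2 without Klf8-trap replicate 1. Over all clusters 40, 8 and 7 passed as lower at these settings.

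The embryonic globins, which Kruppel-like factors help to control, had the highest median difference of all gene lists. All 4 measured of 5 listed had differences above 0 and arrays that did not overlap, but 0 passed the threshold in limma, and all 4 had an unadjusted p under 0.05. Over all clusters the groups were without overlap at 9.95%, with 4.50% in the higher and 5.45% in the lower direction. Hbb-bh1, an embryonic beta-like globin, read 10.85, 12.15, 12.37 and 11.99 in doubly mutant and 9.88, 10.07 and 9.79 in Klf3-null arrays. The difference of 1.92 ± 0.41 or 3.80-fold was the highest of all tested clusters (adjusted p = 0.124). Doubly mutant replicate 1 was the lowest of its group, and wild-type arrays reached 11.25 and Klf8-trap arrays 11.43. Hba-x, the embryonic alpha-like globin, read 12.42, 13.54, 13.18 and 13.32 against 11.67, 11.64 and 11.56 (1.49 ± 0.41, adjusted p = 0.157). Hbb-y and Hbb-bh2 differed by 0.60 and 0.62 (adjusted p = 0.203 and 0.128), the latter at dim signals. The list median was 1.05, and it ran from 0.96 to 1.49 over all alternatives. Leaving out doubly mutant replicate 1 took Hbb-bh1 past the threshold (2.25, adjusted p = 0.0165), as did leaving out replicate 4 (1.87, adjusted p = 0.0478) and weighting the arrays (1.97, adjusted p = 0.0405). Hbb-bh2 also passed without replicate 4 (0.71, adjusted p = 0.0195). Wild-type and Klf8-trap arrays spread widely in these genes, with Hba-x from 10.70 to 12.59 in wild type, and the interaction did not pass (adjusted p = 0.223 to 0.352).

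Of the 8 genes in the adult globin list only the theta-globin genes Hbq1a and Hbq1b had a cluster of their own. The others share clusters that name several genes, so no value is given here for the adult alpha and beta globins. Hbq1a read 8.20, 7.99, 7.28 and 6.45 in doubly mutant and 8.31, 8.25 and 8.05 in Klf3-null arrays (-0.72 ± 0.29, adjusted p = 0.311), and Hbq1b differed by -0.40 ± 0.26 (adjusted p = 0.547). Arrays overlapped in both. Doubly mutant replicate 4 had the lowest Hbq1a signal of the 7 arrays, and without it the differences were -0.38 for Hbq1a and -0.23 for Hbq1b. Hbq1b gave -0.19 without doubly mutant replicate 3 and -0.61 without replicate 1. The 17 regulators of globin switching, such as Sox6 (-0.38) and Zbtb7a (-0.32), had 0 members past the threshold and a median of -0.01, which turned to 0.05 when quantile normalization was repeated and ran from -0.04 to 0.03 as each array was left out.

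Other genes of the pathway did not pass. Of 20 Kruppel-like and Sp factors measured, only Klf8 passed. Klf1, the activating member of the family in red cell precursors, differed by -0.26 (adjusted p = 0.35), and Klf12, another repressor that recruits CtBP, by 0.43 ± 0.29 (adjusted p = 0.571). The other members lay between -0.21 and 0.26. The family's median was -0.03, and it turned to 0.01 when quantile normalization was repeated and to 0.03 without doubly mutant replicate 3. Of 16 corepressor genes, 0 passed (median 0.06, and 0.09 without doubly mutant replicate 1), with Ctbp1 at 0.04, Ctbp2 at 0.12 and the histone demethylase Kdm1a at 0.04. Genes linked to KLF8 in cancer cell lines, among them Ccnd1 (-0.15), Cdh1 (0.05), Mmp9 (0.07) and Epsti1 (-0.26), had 0 of 14 members past the threshold or with an unadjusted p under 0.05. Over all clusters 0.0470% passed and 12.9% had an unadjusted p under 0.05, so 0 of 14 lies near these shares. The median of the 14 was 0.03 (0.02 to 0.05 as each array was left out).

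The 5 genes on each side of Klf8 on the X chromosome were examined for effects of the allele on its surroundings. Of the 10, 0 passed and 0 had an unadjusted p under 0.05, against 12.9% of all clusters. Their differences ran from -0.35 (Kctd12b) to 0.11 (Rragb), with a median of -0.09, and the arrays overlapped in all 10. Over all clusters 9.95% were without overlap, so for 10 genes counts of 0 lie near these shares. Differences below 0 were found for 9 of the 10, against 54.4% of all clusters. The median was -0.03 without doubly mutant replicate 3 or Klf3-null replicate 1.

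Genes that Klf3 loss raises were mostly higher again in doubly mutant arrays, without passing the threshold. This list was chosen on Klf3-null arrays that are the reference here, so it gives no independent evidence of direction. Of 14 members, 11 had differences above 0 against 45.6% of all clusters, the median was 0.34, and Klf8 was the only one past the threshold, as the lower call. Kdelr3, a receptor that returns proteins to the endoplasmic reticulum, read 9.54, 9.21, 8.94 and 8.57 against 8.33, 8.25 and 7.86 (0.92 ± 0.18, adjusted p = 0.117), with no overlap. Cyp4f39, a cytochrome P450, read 8.87, 7.66, 8.62 and 6.94 against 6.64, 6.99 and 6.40, which overlap (1.35 ± 0.33, adjusted p = 0.128). Rragd (0.62), Supt3 (0.63), Cttnbp2nl (0.62), the galectin gene Lgals3 (0.61) and Spi1 (0.50), which encodes PU.1, had differences of like size. Pqlc3 (-0.03) and the adipolin gene C1qtnf12 (0.01) lay near 0, and Arl15 differed by -0.65 (adjusted p = 0.213) and passed without doubly mutant replicate 1. Without doubly mutant replicate 4 the median was 0.53, and Lgals3, Supt3, Kdelr3 and Cyp4f39 passed as higher, as did 204 of all 23410 clusters. The median ran from 0.23 to 0.53 as each array was left out, and its lowest value over all alternatives was 0.07.

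Genes that Klf3 loss lowers split in their direction, and the same caution holds for their choice. Gbp2b and Lipo3 rose, as given above. Grap2, a signalling adaptor, read 9.30, 9.05, 8.25 and 8.48 against 9.75, 9.67 and 9.41 (-0.84 ± 0.21, adjusted p = 0.13), and passed without doubly mutant replicate 1. Septin1 (-0.83, adjusted p = 0.141), Pik3r1 (-0.62, adjusted p = 0.131), the regulatory subunit of phosphoinositide 3-kinase, and Tmem26 (-0.42, adjusted p = 0.208) were further from wild type too, and in these 4 genes the groups did not overlap. Over all clusters 5.45% were without overlap in the lower direction. Dnaja4 (0.03), Pdzk1ip1 (0.24), Asb2 (-0.21) and Icos (-0.25) overlapped. The median of the 10 was -0.23 and became -0.14 without Klf3-null replicate 2.

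Erythroid genes lay slightly lower in the doubly mutant arrays, with 0 members of any erythroid list past the threshold. All 9 erythroid markers had differences below 0, against 54.4% of all clusters, with a median of -0.23 and Gata1 and Hemgn lowest at -0.30. The median was -0.13 without doubly mutant replicate 4 and -0.15 without replicate 3. Of 24 erythroid transcription factors 17 were below 0 (median -0.13, -0.04 without doubly mutant replicate 3 and -0.23 without replicate 1). Ldb1, a cofactor of GATA1 and TAL1, lay on the other side and did not overlap, at 10.84, 10.87, 10.68 and 10.83 against 10.49, 10.51 and 10.46 (0.32 ± 0.08, adjusted p = 0.129). Among KLF1-activated genes 15 of 17 were below 0 (median -0.18, and -0.08 without doubly mutant replicate 4). In haem synthesis and iron handling 23 of 25 were below 0 (median -0.12), among them the porphyrin enzyme Urod (-0.34) and the iron exporter Slc40a1 (-0.50). In the red cell membrane list 25 of 30 were below 0 (median -0.13, -0.08 without doubly mutant replicate 4 and -0.24 without replicate 1), while the tropomyosin Tpm1 differed by 0.52 (adjusted p = 0.117) without overlap. Without doubly mutant replicate 4, Tpm1 passed as higher and Slc40a1 and the adhesion receptor gene Cd44 as lower.

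Genes of late erythroid maturation had the lowest of these medians, at -0.25, with 20 of 25 below 0, against 54.4% of all clusters. Ypel4 read 11.47, 11.17, 10.87 and 9.92 against 11.85, 11.72 and 11.48 (-0.83 ± 0.26, adjusted p = 0.189). Rnf11, a RING finger protein, read 10.96, 10.49, 10.42 and 10.27 against 11.15, 11.20 and 11.01 (-0.59 ± 0.14, adjusted p = 0.128), and passed without doubly mutant replicate 1. The ubiquitin ligase Trim58 differed by -0.70 and the phosphatidate phosphatase Lpin2 by -0.56 (adjusted p = 0.271 and 0.263), with overlap. Doubly mutant replicate 4 was the lowest array for Ypel4, Rnf11, Trim58 and Lpin2, and without it the list median was -0.10, against -0.39 without replicate 1. Of 33 cell cycle genes 26 were below 0, with a small median of -0.09 and Cdc20, an activator of the anaphase-promoting complex, at -0.26 (adjusted p = 0.213). The cell cycle median was -0.14, -0.03 and -0.15 without doubly mutant replicates 1, 3 and 4, and without replicate 4 the phosphatase gene Cdc25a passed as lower.

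Macrophage markers were lower throughout, and this went with the doubly mutant arrays to different degrees. All 20 had differences below 0, against 54.4% of all clusters, the median was -0.61 and 0 passed. An unadjusted p under 0.05 as lower was found for 9, against 7.58% of all clusters. Arrays did not overlap for Marco, Cd5l, Vcam1 and Vsig4, against 5.45% of all clusters in the lower direction. The scavenger receptor gene Marco read 8.16, 9.42, 9.02 and 8.24 against 10.18, 10.18 and 9.74 (-1.33 ± 0.28, adjusted p = 0.124), and passed without doubly mutant replicate 2. Cd5l, a secreted macrophage protein, read 6.13, 8.14, 7.61 and 7.73 against 8.67, 8.64 and 8.19 (-1.10 ± 0.36, adjusted p = 0.209). The list mean was 7.48, 8.25, 8.17 and 8.89 in doubly mutant arrays and 8.93, 8.98 and 8.53 in Klf3-null arrays, so replicate 1 was lowest and replicate 4 overlapped the Klf3-null arrays. Without replicate 1 the median was -0.37. Without replicate 4 it was -1.02, and 7 of 20 markers passed as lower (Timd4, Fcgr1, C1qa, C1qb, C1qc, Csf1r and Cd68). At that setting 280 of 23410 clusters passed as lower. In bulk samples, fewer macrophages and less RNA per macrophage cannot be told apart.

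Stromal genes lay on the other side. The median of 14 markers was 0.24, and 0 passed. As higher, 6 had an unadjusted p under 0.05, against 5.28% of all clusters, and 5 did not overlap, against 4.50%. Col1a1, the alpha 1 chain of type I collagen, read 10.60, 10.25, 11.13 and 10.28 against 9.71, 9.46 and 9.57 (0.99 ± 0.18, adjusted p = 0.0721). It passed with array weights and without doubly mutant replicate 1, 2 or 4. Col3a1 (0.62), Col1a2 (0.56), the pericyte receptor Pdgfrb (0.49) and the retinol acyltransferase Lrat (0.36) completed the 5, with adjusted p from 0.128 to 0.316. The decorin gene Dcn (-0.23) and lumican gene Lum (-0.40) were not higher. The list mean was 8.42 to 8.63 in doubly mutant and 8.14 to 8.34 in Klf3-null arrays. Without doubly mutant replicate 3, which had the highest value of Col1a1, Col1a2, Col3a1 and Pdgfrb, the list median was 0.13, and without replicate 1 it was 0.36. Without replicate 4, Col1a1, Col3a1 and the smooth muscle actin gene Acta2 passed as higher, as did 204 of all 23410 clusters.

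Other cell types differed by single arrays. The hepatocyte list mean of doubly mutant replicate 1 was 10.51, while the other 3 lay at 11.52 to 11.62, and the list's median of -0.28 became 0.03 without it, -0.43 without replicate 4 and -0.17 without Klf3-null replicate 3. Alb and Afp differed by -0.03 and -0.08. In the megakaryocyte list the median was -0.37, with the platelet factor gene Pf4 at 9.32, 9.72, 9.54 and 11.01 against 10.61, 10.85 and 10.57, so that replicate 4 lay above all Klf3-null arrays and the other 3 below. The median was -0.70 without replicate 4 and -0.19 without replicate 1. With the macrophage signal as a covariate the hepatocyte and megakaryocyte medians were 0.14 and 0.21. Granulocyte and myeloid genes had a median of 0.05 and included Mpo (0.92) and Cybb (-1.04), and progenitor, lymphoid and mast cell and endothelial lists had medians from -0.01 to 0.08. As each array was left out, these 4 medians ran from -0.06 to 0.20. Over all alternatives the granulocyte and myeloid median went as low as -0.56 and the lymphoid and mast cell median as low as -0.13. None of these lists had a member past the threshold, and without doubly mutant replicate 4 Mpo and the cathepsin gene Ctsg passed as higher and Cybb as lower. In the fit with the macrophage covariate no embryonic globin and no member of an erythroid list passed. Beyond that fit, the part of these other cells' RNA in the erythroid and globin differences was not tested.

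**Figure D4:**
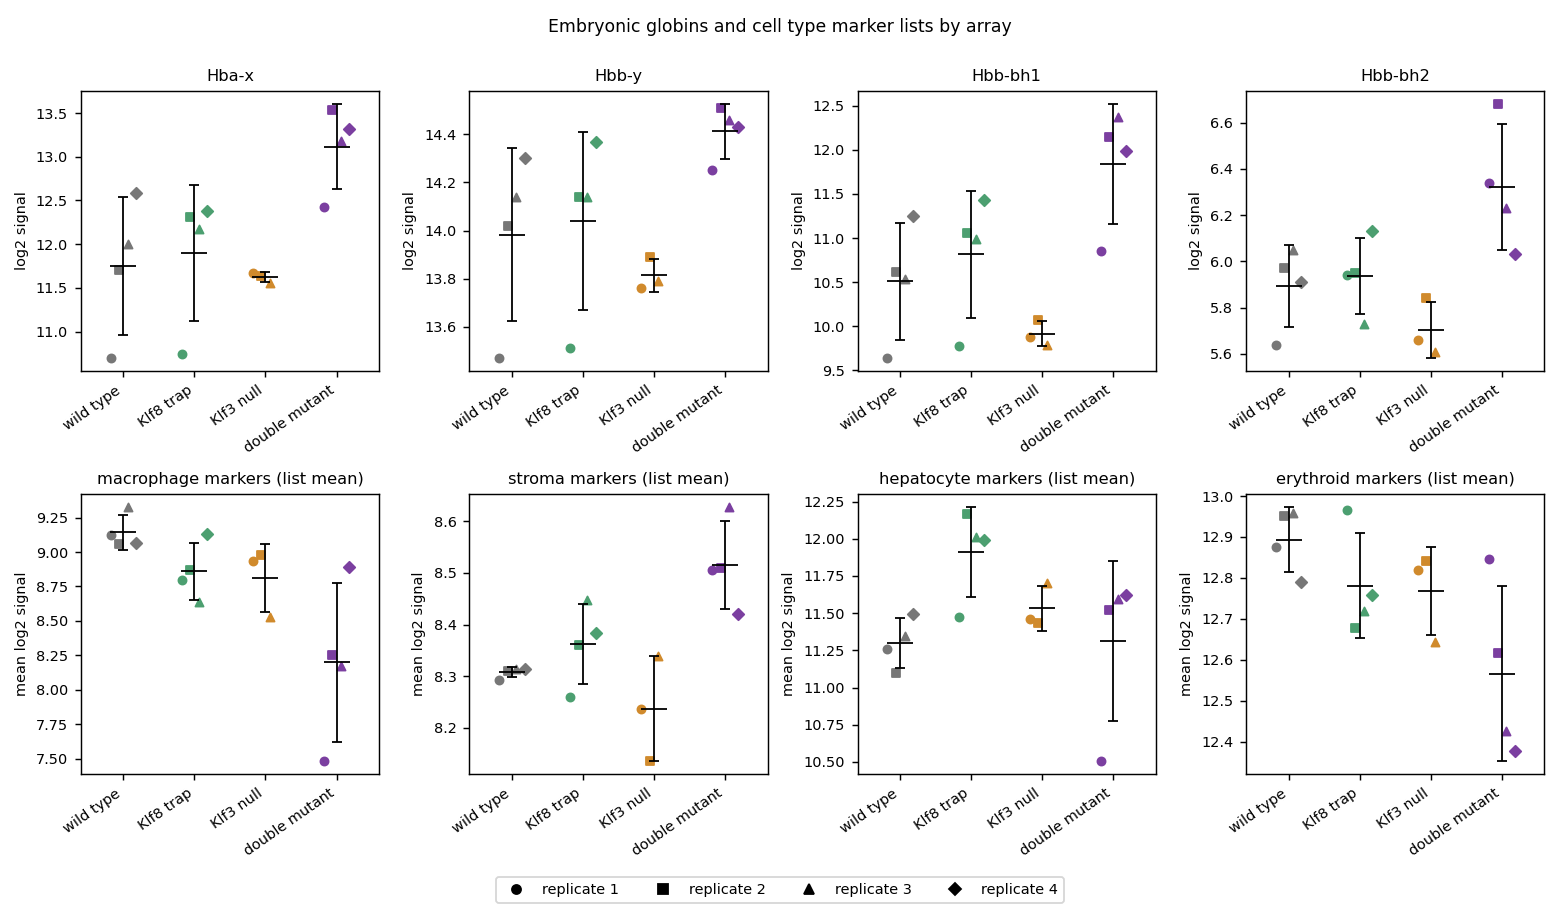
Log2 signal per array of the 4 embryonic globins (top) and mean log2 signal per array of the macrophage, stroma, hepatocyte and erythroid marker lists (bottom), by genotype, with 1 point per array (its shape gives the replicate number), a long bar for the group mean and error bars of 1 SD. Doubly mutant and Klf3-null arrays do not overlap in any globin or in the stroma mean, while doubly mutant replicate 1 is lowest in the macrophage (7.48) and hepatocyte (10.51) means.

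Among interferon response genes, Gbp2b rose while most others lay lower. Of 19 members 13 had differences below 0, against 54.4% of all clusters, and the median was -0.30. An unadjusted p under 0.05 as lower was found for 7, against 7.58% of all clusters. Gbp7, of the same guanylate-binding family as Gbp2b, read 7.70, 8.39, 7.38 and 8.41 against 9.68, 9.61 and 8.67 (-1.35 ± 0.30, adjusted p = 0.128), with no overlap, and passed without doubly mutant replicate 4. The deubiquitinase-like Usp18 read 6.61, 6.81, 6.71 and 6.98 against 8.33, 7.49 and 7.04 (-0.84, adjusted p = 0.256). Klf3-null replicate 1 had the highest Gbp7, Usp18 and Irf7 values of the 7 arrays, and without it the median was -0.02.

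In the list of p53 targets and apoptosis genes, 4 of 19 members lay lower without overlap, against 5.45% of all clusters. Phlda3, a repressor of Akt signalling, read 6.87, 6.83, 6.56 and 6.67 against 7.52, 7.41 and 7.35 (-0.69 ± 0.16, adjusted p = 0.128). Ccng1, cyclin G1, read 9.10, 9.17, 8.93 and 9.39 against 9.71, 9.80 and 9.61 (-0.56 ± 0.14, adjusted p = 0.13). Eda2r (-0.59) and Aen (-0.35) were the others, and Ccng1 and Aen passed without doubly mutant replicate 4. The median of 19 was -0.13, and it became -0.07 without doubly mutant replicate 3 or Klf3-null replicate 1. Of 21 genes of the integrated stress response 16 were above 0, against 45.6% of all clusters. Their median was 0.07, which was 0.11 without doubly mutant replicate 3 and 0.03 without Klf3-null replicate 1. Of the 21, 1 was without overlap, as higher, against 4.50% of all clusters. It was the pseudokinase gene Trib3, at 7.07, 7.68, 7.03 and 7.38 against 6.82, 6.81 and 6.82 (0.47 ± 0.15, adjusted p = 0.208). The aquaporin genes of primitive erythroid cells had differences of -0.54 to -0.31, with Aqp8 without overlap (-0.37, adjusted p = 0.179).

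**Figure D5:**
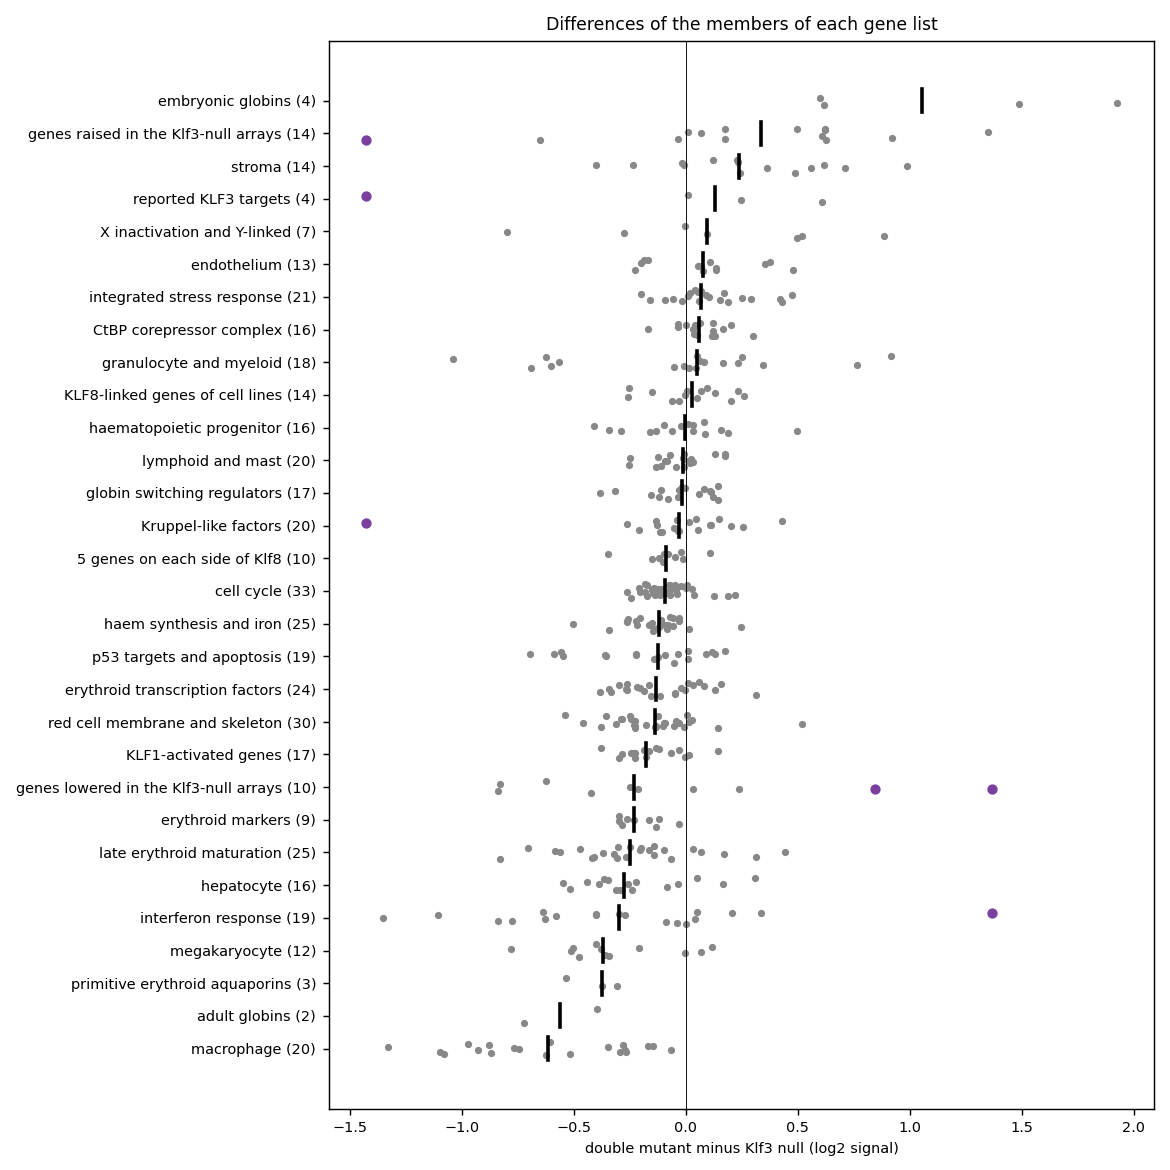
Difference between doubly mutant and Klf3-null arrays (horizontal axis, log2 signal) of every measured member of 30 gene lists, ordered by their medians, which are drawn as black bars, with the number of members in brackets and members past the threshold in purple. Medians run from 1.05 for the embryonic globins to -0.61 for the macrophage markers, and the purple points are Klf8, Gbp2b and Lipo3, some of them in several lists.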

How the data were processed

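Biotin-labelled RNA of 15 samples was hybridised to Affymetrix mouse arrays, 1 per sample. The authors deposited log2 signals per transcript cluster, and the submitters' processing notes list RMA and Partek, without versions. No source used here gives the platform's genome build. In the platform annotation of 2016, 21789 clusters had 1 gene symbol, 1621 several and 12146 none, and 21698 matched the gene table of GRCm38.p6, which changed 0 symbols. Lists and names use clusters with 1 symbol.

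The deposited values were fitted without further normalization with limma 3.58.1 in R 4.3.3, with 1 mean per genotype over all 15 arrays and eBayes without a trend. Precision is set by the number of arrays, and the standard error of a difference had a median of 0.12. Tests were two-sided, with Benjamini-Hochberg adjustment over all 23410 clusters that have a symbol. The threshold was 0.05. A gene with several clusters is represented in a list by the one with the highest mean signal. The procedure was tested on simulated data.

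Genes named are Klf3, Klf8, the globins, list members past the threshold, and in each direction up to 15 genes with the largest difference among those past the threshold without overlap. A direction with fewer than 10 such genes is filled to 10 by the smallest p, and predicted genes and Riken clones are skipped. Of 471 entries in 30 lists, 424 had a cluster, and list members are given by value where their list is described. The comparison, lists and alternatives were chosen with earlier results of these data known.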

Additional observations from a re-analysis of the deposited data

Results flagged for a closer look

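In groups of 4 arrays, an array was listed when its gap to the nearest other array exceeded Dixon's 95% limit, among 57 groups examined. Chance alone lists about 1 in 20 such groups, and 2 were found, both in doubly mutant replicate 1. Its hepatocyte list mean was 10.51 against 11.52 to 11.62 in the other 3 doubly mutant arrays. Its Tmem251 signal was 6.19 against 5.87 to 5.90.

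The trap effect on Itgb7 differed between the Klf3-null and the Klf3-intact background by 1.68 on the log2 scale (limma interaction, adjusted p = 0.0311), with higher signal in 4 of 4 doubly mutant arrays than in any other array.

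Of the 12146 clusters without a gene symbol, which the comparison does not use, 1 was higher in doubly mutant arrays when all 35556 clusters were fitted, and 0 were lower. It read 9.22, 8.75, 9.28 and 8.97 in doubly mutant and 7.19, 6.80 and 5.94 in Klf3-null arrays (2.41, limma adjusted p = 0.0225). Before adjustment 1165 of these clusters had p under 0.05.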

How the results depend on the processing

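Among the genes picked by the naming rule, only Klf3 changed sign under the alternatives tried, and its small difference of 0.05 ran from -0.15 to 0.16. The signs of list members given only by value were not followed individually. The count of 11 clusters became 0 with only the 7 arrays of both groups, 55 with array weights, 5 among clusters at or above the median signal, 6 over all clusters of the table, 4 with the macrophage covariate and 162 without replicate 1 of the doubly mutant and of the Klf8-trap group, which correlated least with their own groups. Leaving out each array in turn gave 1 to 484. It stayed between 8 and 13 with a trend, with robust eBayes, with quantile normalization, with median centring, with clusters of 1 symbol, with genes in place of clusters and with sex as a covariate.

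Klf8 passed in 20 of 28 alternatives. It missed with only the 7 arrays (-1.42, adjusted p = 0.473), with quantile normalization (-1.39, adjusted p = 0.0617) and over all clusters of the table (-1.42, adjusted p = 0.0788), and it ran from -1.68 to -1.28 when each array was left out. The fit on clusters at or above the median signal gave no value for Klf8.

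The labels do not say that replicate numbers pair these arrays, and deviations from the group means did not settle it. They correlated at 0.08, 0.07 and 0.16 between arrays numbered 1, 2 and 3. Doubly mutant replicates 2 and 3 correlated best with the Klf3-null array of their own number, and replicate 1 with replicate 2 (0.09). With replicate number as a block over 15 arrays, 11 clusters passed, 8 of them among the 11 of the fit without it, and Klf8 gave -1.38 (adjusted p = 0.0379). Tnks1bp1, Rps3a1 and Lipo3 missed the threshold there, while Iigp1 and Hbb-bh1 (1.76 ± 0.24, adjusted p = 0.0251) passed. Replicate 1 had the lowest mean signal of embryonic globins in the doubly mutant, Klf8-trap and wild-type groups (10.97, 9.99 and 9.86). With the block over replicates 1 to 3 of both groups 0 clusters passed, with 3759 at an unadjusted p under 0.05, and Klf8 gave -1.30 (adjusted p = 0.103). The values carry no measure of signal over background, so differences of dim clusters such as Lipo3 and Iigp1 may be understated, and this was not tested.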

Other observations

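Gene families outside the lists were examined after their values were seen and are therefore described without a test. Of the 9, cytosolic ribosomal proteins, integrins and guanylate-binding proteins were divided between higher and lower, with medians of 0.00, 0.04 and -0.05, while members of the other 6 lay mostly to 1 side. Of 77 mitochondrial ribosomal protein genes 76 had differences below 0, against 54.4% of all clusters, with a median of -0.20. An unadjusted p under 0.05 as lower was found for 33, against 7.58% of all clusters. Mrps34, of the small subunit, was lowest at -0.46 ± 0.10 (SE), without overlap. Of 79 respiratory chain and ATP synthase genes 70 were below 0 (median -0.21), with Atp5e at 9.67 ± 0.65 (SD, n = 4) against 10.61 ± 0.05 (SD, n = 3) and Cox5a at 10.22 ± 0.13 against 10.60 ± 0.13. Of 39 proteasome subunit genes 38 were below 0 (median -0.18), among them Psmb5 (-0.51) and Psma2 (-0.42), and of 25 TIMM and TOMM genes of mitochondrial protein import 21 (median -0.20), among them Timm13 (-0.50). None of these genes passed the threshold. Without doubly mutant replicate 4, 4 of the mitochondrial ribosomal, 2 of the respiratory chain, 3 of the proteasome and 3 of the import genes passed as lower, and without replicate 1 it was 0, 2, 2 and 1. Over all 23410 clusters 280 passed as lower without replicate 4 and 40 without replicate 1. When quantile normalization was repeated the 4 medians were -0.15, -0.13, -0.10 and -0.12, in the order given.

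Collagen genes lay on the other side, with 36 of 44 above 0, against 45.6% of all clusters. Their median was 0.17, which was 0.05 with the macrophage covariate. Besides Col1a1, Col5a1 read 8.09 ± 0.20 against 7.59 ± 0.11 (0.50) and Col6a2 8.07 ± 0.13 against 7.64 ± 0.11 (0.43). Without doubly mutant replicate 4, 7 of the 44 passed as higher, with array weights 4, and without replicate 1 or 2 Col1a1 alone. Over all 23410 clusters 204 passed as higher without replicate 4, 39 with array weights, and 41 and 10 without replicates 1 and 2. Of 29 clustered histone genes 24 were below 0, against 54.4% of all clusters (median -0.16, and -0.10 without doubly mutant replicate 3). H2bc8 read 8.98 ± 0.52 against 10.13 ± 0.12 and H1f2 9.79 ± 0.55 against 10.82 ± 0.16, without overlap. H2bc8 passed without doubly mutant replicate 4 and H1f2 without replicate 1. Of 8 guanylate-binding protein genes, Gbp2b (1.37) and Gbp7 (-1.35) were the extremes on either side, and the median ran from -0.17 to 0.00 as each array was left out.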
